A study of Mus musculus with 22 samples.

Results

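Complement and coagulation factors of the liver were followed as a set of 42 genes, of which 39 could be tested among 11975 genes on Illumina mouse bead arrays. The members were taken by symbol: every array probe whose platform annotation carried 1 of the 42 symbols was read, and each gene was represented by its brightest probe. C3, Cfd and Cpb2 had no probe under their symbols and were not analysed here. Liver RNA came from microdissected samples of female C3H mice, 22 arrays in 4 groups. The 3 controls were age-matched mice that had received the vehicle, DMSO in corn oil. TCPOBOP, an agonist of the nuclear receptor CAR that is not genotoxic, was given by gavage at 3 mg/kg every week for 28 weeks (3 arrays) or 42 weeks (7 arrays). In the last group (9 arrays) an injection of the genotoxic carcinogen DENA (90 mg/kg) preceded 28 weeks of the same TCPOBOP dosing. All groups shared strain, sex and tissue. The labels say that hepatocellular carcinomas were seen in both regimens, but not whether a given array holds tumour or surrounding liver, and they do not give the age of each control. The arrays are numbered as separate biological replicates.

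Most complement and clotting proteins in blood are made by hepatocytes. Complement is started by antibody (classical pathway), by sugar-binding lectins (lectin pathway) or on surfaces (alternative pathway), and all routes end in the membrane attack complex built from C5 to C9. Clotting is a cascade of proteases that ends with thrombin cutting fibrinogen into fibrin; anticoagulants hold it in check and plasmin dissolves the clot.

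The promoters of 33 of the 42 members were found in the RefSeq promoter table (GRCm38.p6, 250 bases before to 50 after the transcription start, 32851 promoters). Those of C9 and C8a are shown because they had the largest falls among terminal complement genes, and those of Fgb and Fga because these neighbouring fibrinogen genes differed in their calls on the brightest probe, though a second Fga probe was called lower at 42 weeks. Capitals mark the letters GTTAAT, part of the site of the liver factor HNF1, and TTGCNNAA, a core of the C/EBP site, each searched on both strands. All are written 5′ to 3′ in the direction of the gene.
C9 (chr15:6445096-6445395, plus strand): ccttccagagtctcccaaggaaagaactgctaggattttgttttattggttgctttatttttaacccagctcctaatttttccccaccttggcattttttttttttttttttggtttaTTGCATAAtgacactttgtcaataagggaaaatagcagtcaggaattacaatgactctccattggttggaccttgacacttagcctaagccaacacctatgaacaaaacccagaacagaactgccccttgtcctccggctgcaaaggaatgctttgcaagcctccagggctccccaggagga
C8a (chr4:104876349-104876648, minus strand): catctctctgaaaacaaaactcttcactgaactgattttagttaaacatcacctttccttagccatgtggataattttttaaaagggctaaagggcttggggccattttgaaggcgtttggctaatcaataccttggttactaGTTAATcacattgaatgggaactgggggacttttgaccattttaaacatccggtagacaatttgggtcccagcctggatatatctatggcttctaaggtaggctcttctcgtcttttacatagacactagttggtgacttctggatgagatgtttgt
Fgb (chr3:83049814-83050113, minus strand): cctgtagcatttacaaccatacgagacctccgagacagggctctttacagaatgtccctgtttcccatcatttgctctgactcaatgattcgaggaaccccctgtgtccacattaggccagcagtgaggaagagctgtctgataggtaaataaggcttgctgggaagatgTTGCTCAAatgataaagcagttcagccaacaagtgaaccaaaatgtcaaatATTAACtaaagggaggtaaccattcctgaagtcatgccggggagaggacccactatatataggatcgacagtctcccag
Fga (chr3:83025903-83026202, plus strand): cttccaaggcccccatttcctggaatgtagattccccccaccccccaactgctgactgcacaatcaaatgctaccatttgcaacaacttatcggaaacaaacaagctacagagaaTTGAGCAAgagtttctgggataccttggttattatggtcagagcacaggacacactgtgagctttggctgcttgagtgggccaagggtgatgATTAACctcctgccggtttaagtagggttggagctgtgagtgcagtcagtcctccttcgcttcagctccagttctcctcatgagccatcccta

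GTTAAT was present in 11 of the 33 member promoters (33.3%), against 7.1% of all promoters in the table. Of the 18 members with a promoter that were called lower at 42 weeks, 5 held it (27.8%), and of the other 12 tested members 6 did. TTGCNNAA was present in 10 of 33 (30.3%), against 10.8% of all promoters. It was in 7 of the 18 lower members (38.9%) and in 1 of the other 12 (8.3%). The letters CAAAGTNCA, for the liver factor HNF4, were in 2 of 33 (6.1%) against 1.4%. The letters do not overlap in the promoters shown. Fgb and Fga each hold both patterns: GTTAAT starts 29 bases before the start of Fgb (position -29) and at -43 in Fga, and TTGCNNAA at -80 and -135. These matches are a description of letters in a window and carry no test.

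Levels are log2 of the authors' normalized intensity, and a gene was called when limma's p, adjusted over all 11975 genes, was under 0.05. The 39 tested members were detected above background on all control and 28-week arrays, and 36 to 39 of them on each array of the other groups. Of 10 listed hepatocyte markers 9 were measured, all of them detected on every array outside the 42-week group, where 8 were. Of these, 3 (33.3%) were called lower at 42 weeks and 4 (44.4%) after DENA plus TCPOBOP, and 0 higher. Of all genes, 32.3% and 26.9% were called in either direction, and 17.5% and 15% lower. The median hepatocyte marker differed from controls by -0.13 and -0.47. These markers ran from Tat at -1.92 to Hnf4a at 0.21 at 42 weeks, and from -1.08 to 0.25 for the same genes after DENA plus TCPOBOP. Their summed intensity was 130500 to 156800 in controls, 110200 to 144000 at 42 weeks and 108000 to 149300 after DENA plus TCPOBOP. In these bulk samples fewer cells of a type and less RNA per cell cannot be told apart. Markers of sinusoidal endothelium summed to 8477 to 10060 in controls and 7337 to 8573 at 28 weeks, but to 1257 to 3244 at 42 weeks and 1663 to 5579 after DENA plus TCPOBOP. Not all of them were lower: at 42 weeks 5 of 7 were called lower (Clec4g at -3.69) and Stab1 stood at 0.44. After DENA plus TCPOBOP 4 were called lower (Clec4g at -2.33) and Lyve1 stood at 0.35. None was called higher in either regimen. Stellate cell markers ran from 11040 to 13190 in controls, 1721 to 6134 at 42 weeks and 1453 to 6861 after DENA plus TCPOBOP. Stellate markers did not all move one way: at 42 weeks 3 of 6 were called lower (Dcn at -2.45) and 1 higher (Col1a1 at 2.45), and after DENA plus TCPOBOP 3 were called lower and Col1a1 stood at 1.63, not called. In controls 2 of the 6 stellate markers were detected on no array, and at 28 weeks 1, so the size of their differences is uncertain. None of the 7 endothelial and 6 stellate markers was undetected on every array at 42 weeks or after DENA plus TCPOBOP. The part of these shifts in the results below was not tested.

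Many complement and coagulation factors were lower than controls in both regimens in which carcinomas were seen, and their changes differed in size from -4.91 to 0.64 on the log2 scale. At 42 weeks of TCPOBOP 23 of 39 members were called lower and 2 higher (Pros1, and Kng1 on a probe near the top of the scale), together 64.1% of members. Of all genes, 17.5% were called lower and 14.8% higher, together 32.3%. After DENA plus TCPOBOP 21 were called lower and 0 higher (53.8%), against 15% of all genes lower and 11.9% higher, together 26.9%. At 28 weeks of TCPOBOP alone limma called 0 members, against 3.6% of all genes higher and 2.76% lower, together 6.35%, and 7 members had an unadjusted p under 0.05. The median member difference from controls was -0.29 at 28 weeks, -0.68 at 42 weeks and -0.51 after DENA plus TCPOBOP on the log2 scale, where the median over all genes was -0.02, -0.01 and -0.01. Groups did not overlap with the controls for 26 of 39 members at 42 weeks (26.7% of all genes) and for 18 after DENA plus TCPOBOP (21.5% of all genes). The 3 comparisons use the same 3 controls. Of paired values below, the first is for 42 weeks and the second for DENA plus TCPOBOP. Slides that held both groups had 1 control each. On slide 2 the members' median difference was -0.77 at 42 weeks, and on slides 3 and 4 it was -0.54 and -0.57 after DENA plus TCPOBOP.

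**Figure D1:**
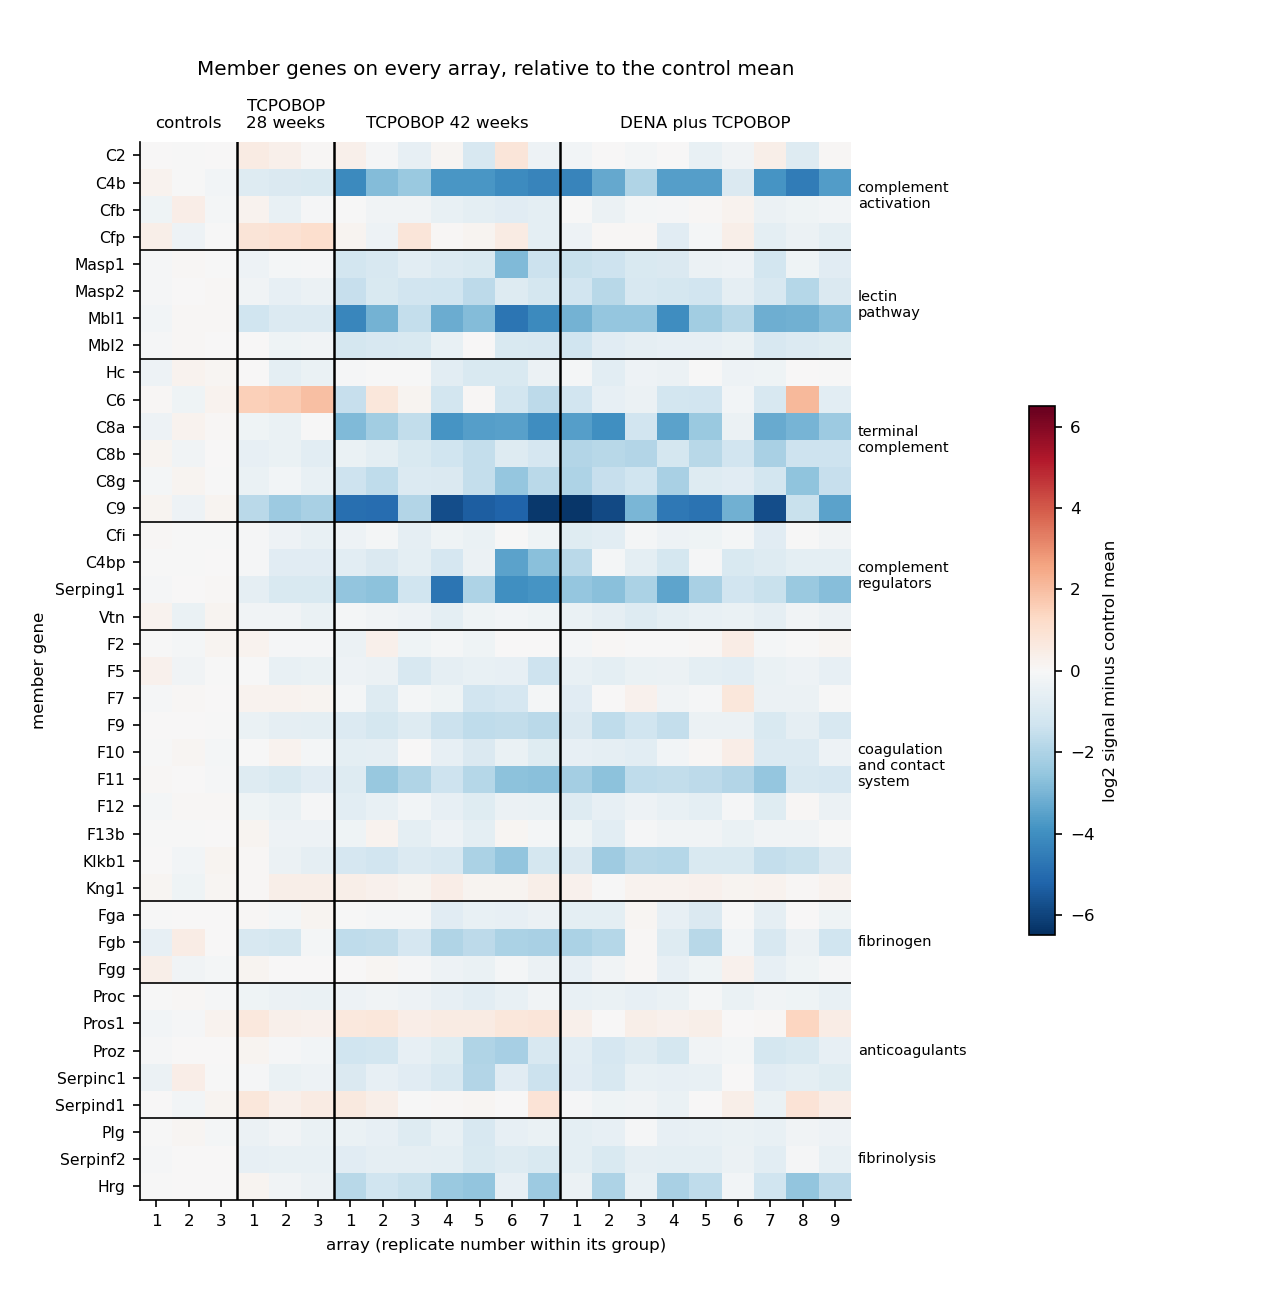
Heat map of log2 signal minus the control mean (colour) for the 39 tested members (rows, by functional group) on each of the 22 arrays (columns, by group and replicate). C4b, Mbl1, C8a, C9 and Serping1 form the darkest rows in the 42-week and DENA plus TCPOBOP columns, while F2 and Fgg stay pale.

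The 28-week result depended on how the spread was estimated. The fit pools the spread over all 4 groups, and the 42-week and DENA plus TCPOBOP arrays varied more among themselves (correlation across genes between arrays of a group 0.946 to 0.981) than controls and 28-week arrays did (0.985 to 0.992). With only the controls and 28-week arrays fitted, 13 members were called, 10 lower and 3 higher, against 17% of all genes. The 13 were C4b, Masp2, Mbl1, C8b, C9, Serping1, F9, F11, Proc and Serpinf2 on the lower side, and Cfp, C6 and Serpind1 on the higher. Irrespective of the fit, 20 of 39 members had groups that did not overlap at 28 weeks, where 33.3% of all genes did so.

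Of the proteins that start the classical and alternative pathways, C4b was called lower in both regimens, and C2, Cfb and Cfp in neither. This is 25% of the 4 measured, beside 17.5% and 15% of all genes called lower and 32.3% and 26.9% in either direction. C4b encodes complement C4, the source of the C4b fragment of the classical and lectin convertases. Its log2 signal was 12.29, 12.02 and 11.88 in the controls and 11.21, 11.13 and 11.08 at 28 weeks. At 42 weeks it ran from 7.76 through a median of 8.27 to 9.66, and after DENA plus TCPOBOP from 7.52 through 8.47 to 11.11. Every treated array lay below every control. C4b fell by 3.62 ± 0.56 (SE) at 42 weeks (n = 7 against 3, limma adjusted p = 4.0e-05) and fell by 3.29 ± 0.54 after DENA plus TCPOBOP (n = 9, adjusted p = 8.9e-05). At 28 weeks the difference was -0.93 ± 0.66 (adjusted p = 0.51). C4a, its near-identical paralogue, was also called lower (-3.94 at 42 weeks), and probes of the pair may bind each other's RNA. C2, which pairs with C4b, and Cfb, which does the same for C3b, differed from controls by -0.42 to -0.09 in the regimens.

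Cfp encodes properdin, which stabilises the alternative convertase and is made largely by myeloid cells. Its log2 signal was 10.68, 9.98 and 10.29 in controls and 11.14, 11.28 and 11.42 at 28 weeks, a difference of 0.96 ± 0.30 (adjusted p = 0.064). It ran from 9.70 to 11.08 at 42 weeks and from 9.60 to 10.70 after DENA plus TCPOBOP, so the 28-week arrays stood above all the others. Against 28 weeks Cfp was lower by -0.85 ± 0.26 at 42 weeks (adjusted p = 0.029) and by -1.22 ± 0.25 after DENA plus TCPOBOP (adjusted p = 0.0026). The former call was lost without 28-week replicate 1, 2 or 3 (adjusted p = 0.069, 0.087 and 0.13). Cfp was named here, as was C6 below, after its values were seen. The sum of the 6 Kupffer cell markers measured was also highest at 28 weeks. It was 2070 to 2548 in controls, 4542 to 5996 at 28 weeks, 1128 to 2791 at 42 weeks and 1317 to 4065 after DENA plus TCPOBOP. At 28 weeks 3 of the 6 were called higher (3.6% of all genes), and Marco stood at -0.01. At 42 weeks their median difference from controls was -0.35, with Vsig4 lowest at -1.14, where Cfp stood at 0.11. The part of these cells in the Cfp values was not tested.

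All 4 members of the lectin pathway were called lower at 42 weeks (17.5% of all genes) and 3 of 4 after DENA plus TCPOBOP (15%). Their median differences were -1.27 and -1.03. Mbl1, a mannose-binding lectin that recognises microbial sugars, read 11.99, 12.20 and 12.24 in controls and 10.86, 11.23 and 11.27 at 28 weeks. It ran from 7.41 through a median of 8.93 to 10.61 at 42 weeks, and from 8.13 through 9.38 to 10.34 after DENA plus TCPOBOP. The control arrays were above all 28-week arrays, and these above all arrays of both regimens. Mbl1 fell by 3.40 ± 0.49 at 42 weeks (adjusted p = 1.7e-05) and fell by 2.80 ± 0.47 after DENA plus TCPOBOP (adjusted p = 0.00012). The difference at 28 weeks was -1.02 ± 0.57 (adjusted p = 0.37). Mbl2, the second mannose-binding lectin, changed less, with differences of -0.81 ± 0.21 and -0.75 ± 0.20. Masp2, the protease that cleaves C4 and C2 for the lectins, fell by 1.25 ± 0.21 and fell by 1.21 ± 0.20. Masp1, which activates Masp2, fell by 1.29 ± 0.33 at 42 weeks (adjusted p = 0.0047). After DENA plus TCPOBOP its difference of -0.85 ± 0.32 was just outside the threshold (adjusted p = 0.051), and it passed without DENA plus TCPOBOP replicate 5, 6 or 8 (adjusted p = 0.043, 0.038 and 0.037). A second Masp1 probe, detected on all 22 arrays, was called lower in both regimens, at -1.28 and -1.39 (adjusted p = 0.0012 and 0.00052).

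**Figure D2:**
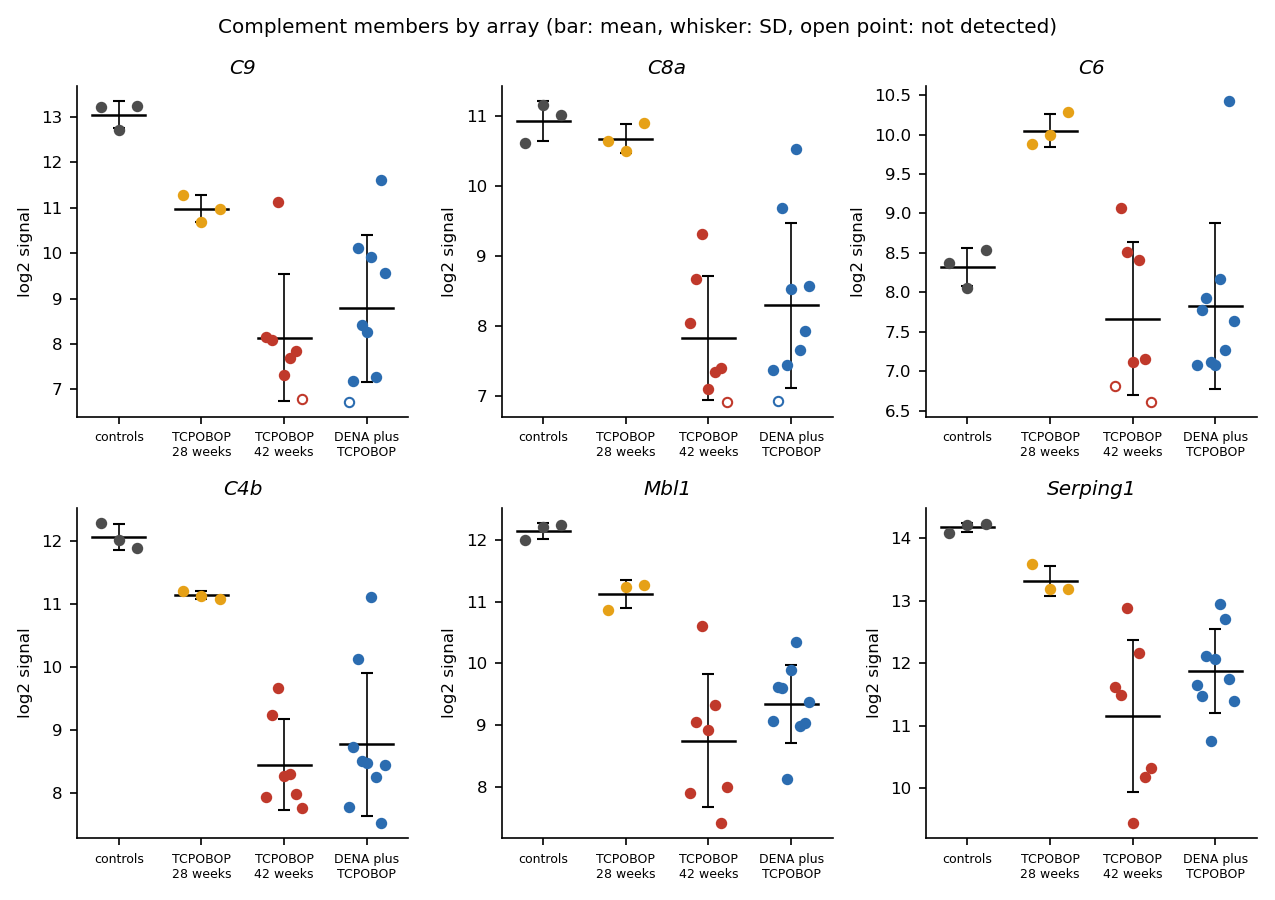
Log2 signal of 6 complement members on each array (points; open points not detected), with the mean (bar) and SD (whisker) of the controls (3 arrays), TCPOBOP 28 weeks (3), TCPOBOP 42 weeks (7) and DENA plus TCPOBOP (9). C4b, Mbl1 and Serping1 step down from controls to 28 weeks to both regimens, C8a overlaps the controls at 28 weeks, and C6 is highest at 28 weeks apart from 1 DENA plus TCPOBOP array at 10.43.

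Within terminal complement, C8a, C8b, C8g and C9 were called lower in both regimens, and Hc and C6 in neither. These 4 are 66.7% of the 6 genes, against 17.5% and 15% of all genes called lower. C9, which polymerises into the pore of the membrane attack complex, had the largest fall of the set in both regimens. Its log2 signal was 13.21, 12.71 and 13.23 in controls and 11.28, 10.68 and 10.97 at 28 weeks. At 42 weeks C9 ran from 6.78 through a median of 7.85 to 11.13, and after DENA plus TCPOBOP from 6.73 through 8.42 to 11.60. All treated arrays were below all controls, and 1 array of each regimen did not detect the gene. C9 fell by 4.91 ± 0.87 at 42 weeks (adjusted p = 0.00017) and fell by 4.27 ± 0.84 after DENA plus TCPOBOP (adjusted p = 0.00058). The 28-week difference of -2.07 ± 1.02 did not pass (adjusted p = 0.29), but did so when only these groups were fitted (adjusted p = 3.3e-05). The authors' values keep their background, which compresses differences at low signals; with background-corrected values C9 fell by 5.80 at 42 weeks and fell by 4.98 after DENA plus TCPOBOP. Its other 2 probes were also called lower in both regimens, with differences between -4.11 and -1.09. The dimmest of them, detected on 7 arrays, was also called lower at 28 weeks (-0.97, adjusted p = 5.6e-05), and the other was not (-1.76, adjusted p = 0.24).

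C8a, C8b and C8g encode the alpha, beta and gamma chains of C8, the component that starts membrane insertion. C8a read 10.62, 11.17 and 11.02 in controls and 10.65, 10.50 and 10.90 at 28 weeks, with overlapping groups. It ran from 6.92 through 7.40 to 9.32 at 42 weeks and from 6.93 through 7.93 to 10.53 after DENA plus TCPOBOP, below all controls. The alpha chain gene fell by 3.10 ± 0.60 (adjusted p = 0.00044) and fell by 2.64 ± 0.58 (adjusted p = 0.0017). Its neighbour on chromosome 4, C8b, fell by 0.98 ± 0.22 and fell by 1.62 ± 0.21, and C8g by 1.52 ± 0.34 and fell by 1.54 ± 0.32. C8b was the only member called between the regimens, lower after DENA plus TCPOBOP than at 42 weeks by -0.64 ± 0.16 (adjusted p = 0.039), where 0.969% of all genes were called lower and 0.843% higher, together 1.81%. The ranges of the regimens overlapped for C8b and for all other members (0.2% of all genes did not overlap). The regimens lay largely on different slides (42 weeks on 1 and 2, DENA plus TCPOBOP on 1, 3 and 4), and with slide as a fixed or random block C8b was not called (adjusted p = 0.31 and 0.058). The call was also lost without 42-week replicate 1, 2 or 6 or without DENA plus TCPOBOP replicate 1, 2, 3, 5 or 7, with adjusted p up to 0.086.

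C6, which joins C5b to begin the membrane attack complex, followed another course. It read 8.37, 8.05 and 8.53 in controls and 9.88, 9.99 and 10.28 at 28 weeks. At 42 weeks C6 ran from 6.61 through 7.15 to 9.06, and after DENA plus TCPOBOP from 7.07 through 7.63 to 10.43. The 28-week arrays were above all controls and all 42-week arrays, and 1 array of DENA plus TCPOBOP (replicate 8) exceeded them. The 28-week difference from controls was 1.73 ± 0.68 (adjusted p = 0.16), and the regimens differed from controls by -0.65 ± 0.58 and -0.49 ± 0.56, neither called. Against 28 weeks C6 was lower by -2.38 ± 0.58 at 42 weeks (adjusted p = 0.0081) and by -2.22 ± 0.56 after DENA plus TCPOBOP (adjusted p = 0.011). Without 28-week replicate 3 the adjusted p was 0.051 and 0.064. Hc, the mouse gene for C5, differed from controls by -0.45 ± 0.22 and -0.24 ± 0.21 and was not called.

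Among the regulators, Serping1 fell in both regimens. It encodes the C1 inhibitor, which blocks C1r, C1s, the MASPs, kallikrein and factor XIIa. Its log2 signal was 14.09, 14.21 and 14.23 in controls and 13.59, 13.18 and 13.19 at 28 weeks. It ran from 9.44 through 11.49 to 12.88 at 42 weeks and from 10.76 through 11.75 to 12.95 after DENA plus TCPOBOP. No treated array reached the controls. Serping1 fell by 3.02 ± 0.54 (adjusted p = 0.00019) and fell by 2.30 ± 0.52 (adjusted p = 0.0021). C4bp, a cofactor that helps to degrade C4b, fell by 1.42 ± 0.50 at 42 weeks (adjusted p = 0.033), a call lost without any 1 of the controls or 42-week replicate 7 (adjusted p up to 0.091), and stood at -0.76 ± 0.48 after DENA plus TCPOBOP (adjusted p = 0.27). A second C4bp probe, detected on all 22 arrays, was called lower in both regimens, at -2.17 and -1.71 (adjusted p = 0.00013 and 0.0012). Vtn, the adhesive protein vitronectin that binds terminal complexes, fell by 0.51 ± 0.13 after DENA plus TCPOBOP (adjusted p = 0.0054) and stood at -0.29 ± 0.13 at 42 weeks (adjusted p = 0.11). The Vtn call was lost without control replicate 1 or 3 (adjusted p = 0.070 and 0.056). Cfi, the protease that inactivates C3b and C4b, differed by -0.29 ± 0.16 and -0.37 ± 0.15 and was not called.

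**Figure D3:**
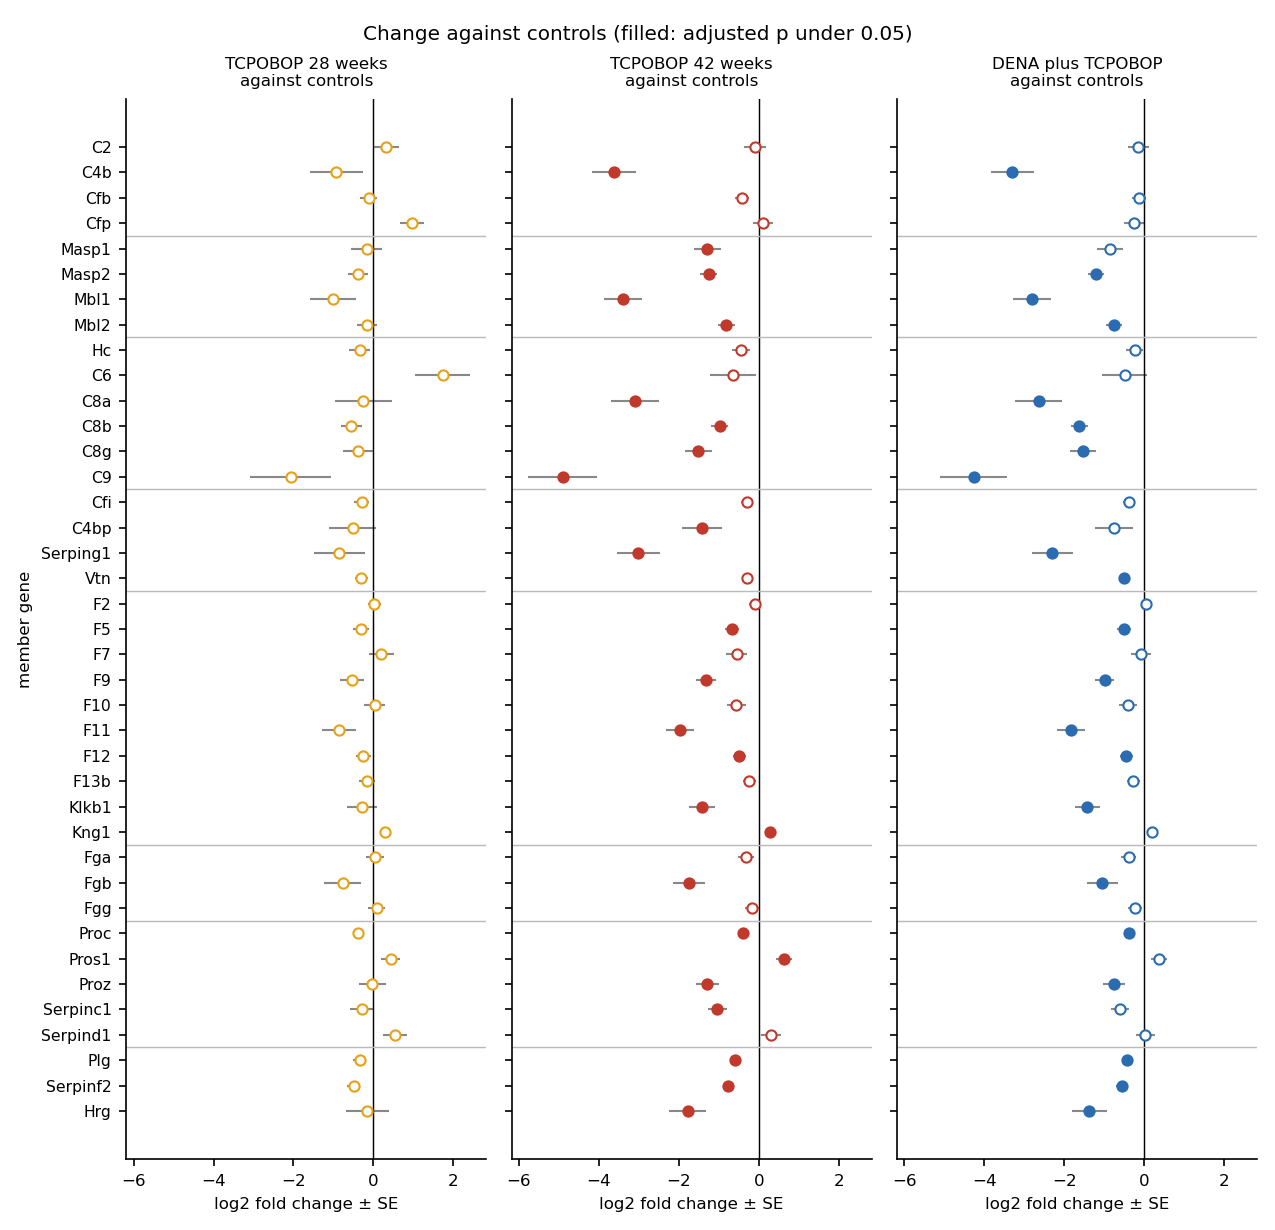
Log2 fold change against controls (point) with its standard error (line) for the 39 tested members, in the 3 treated groups (panels), with filled points where the adjusted p was under 0.05. No point is filled at 28 weeks, 25 are at 42 weeks and 21 after DENA plus TCPOBOP, and C9, C4b, Mbl1, C8a and Serping1 lie farthest to the left in both regimens.

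Of 10 coagulation factors and contact system members measured, 5 were called lower in each regimen (F5, F9, F11, F12 and Klkb1), with group medians of -0.56 at 42 weeks and -0.42 after DENA plus TCPOBOP. The share of all genes called lower was 17.5% and 15%. F11, whose active form activates factor IX, read 12.41, 12.38 and 12.27 in controls and 11.50, 11.35 and 11.62 at 28 weeks. It ran from 9.63 through 10.41 to 11.54 at 42 weeks and from 9.69 through 10.65 to 11.32 after DENA plus TCPOBOP. The controls lay above all treated arrays, and the 28-week arrays overlapped only with the 42-week range. F11 fell by 1.97 ± 0.36 (adjusted p = 0.00024) and fell by 1.82 ± 0.35 (adjusted p = 0.00046). Its neighbour on chromosome 8, Klkb1, the plasma prekallikrein that activates factor XII, fell by 1.43 ± 0.33 and fell by 1.42 ± 0.31. F9, the haemophilia B factor, fell by 1.32 ± 0.25 and fell by 0.98 ± 0.24. F5, the cofactor of factor Xa, fell by 0.68 ± 0.18 and fell by 0.50 ± 0.17. F12, the contact protease, fell by 0.49 ± 0.16 and fell by 0.44 ± 0.16. A second F12 probe was called lower in both regimens, at -0.58 and -0.51. The dimmest F12 probe was called in neither, at -0.12 and -0.34. The F5 calls were lost without control replicate 1 (adjusted p = 0.055 and 0.23), and after DENA plus TCPOBOP also without control replicate 3 (0.091). Those of F12 were lost at 42 weeks without control replicate 2 or 3 (0.097 and 0.090), and after DENA plus TCPOBOP without any 1 control or DENA plus TCPOBOP replicate 1, 2, 4, 5 or 7 (0.057 to 0.15).

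F2, F7, F10 and F13b were called in neither regimen. F2 encodes prothrombin and read 13.78, 13.66 and 13.98 in controls, 14.02, 13.73 and 13.73 at 28 weeks, 13.43 to 14.14 at 42 weeks and 13.67 to 14.28 after DENA plus TCPOBOP. All groups overlapped, and the differences from controls were -0.10 ± 0.14 and 0.05 ± 0.13. F7, the factor that pairs with tissue factor, stood at -0.55 ± 0.26 and -0.09 ± 0.25. F10, the source of the protease that makes thrombin, stood at -0.56 ± 0.23 and -0.41 ± 0.22, and F13b, the carrier chain of the fibrin-crosslinking factor XIII, at -0.23 ± 0.17 and -0.27 ± 0.17.

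Kng1, the kininogen that is the source of bradykinin, was called higher at 42 weeks on its brightest probe and lower on its other probes. The brightest probe read 15.21, 14.79 and 15.22 in controls, 15.15, 15.46 and 15.46 at 28 weeks, 15.23 to 15.50 at 42 weeks and 15.07 to 15.35 after DENA plus TCPOBOP. This probe was near the top of the intensity scale, whose highest value is 46395 on every array, and 42-week replicate 4 read exactly that (15.50), so its differences are compressed and no size is drawn from them. It differed from controls by 0.28 ± 0.10 at 42 weeks (adjusted p = 0.036) and by 0.20 ± 0.10 after DENA plus TCPOBOP (adjusted p = 0.15). The other 2 probes were called lower in both regimens, at -0.42 and -1.22 at 42 weeks and at -0.46 and -0.95 after DENA plus TCPOBOP. With the probes averaged, Kng1 was lower by -0.46 and -0.40. The rise on the brightest probe was lost without control replicate 2 or without 42-week replicate 1, 4 or 7 (adjusted p = 0.37, 0.058, 0.061 and 0.056). No direction is given for this gene. Among the 20 members with several probes, probes also disagreed in sign at 42 weeks for Proc (second probe at 0.07) and Plg (1 of 3 other probes at 0.04), neither of these called.

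Of the 3 fibrinogen chains, Fgb, the beta chain, was called lower in both regimens, and Fga and Fgg, the alpha and gamma chains, in neither on their brightest probes. That is 33.3% of the chains, beside 17.5% and 15% of all genes called lower and 32.3% and 26.9% called in either direction. The 3 genes lie next to each other on chromosome 3, with no coding gene between them. Fgb read 10.11, 11.10 and 10.66 in controls and 9.57, 9.51 and 10.49 at 28 weeks. It ran from 8.52 through 8.94 to 9.55 at 42 weeks, below all controls, and from 8.57 through 9.58 to 10.70 after DENA plus TCPOBOP, which overlapped them. Fgb fell by 1.74 ± 0.39 at 42 weeks (adjusted p = 0.0016) and fell by 1.04 ± 0.38 after DENA plus TCPOBOP (adjusted p = 0.045). The second call was lost without control replicate 2 or 3 (adjusted p = 0.23 and 0.13) or DENA plus TCPOBOP replicate 1, 2, 4, 5, 7 or 9 (0.051 to 0.068).

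Fga read 15.25, 15.26 and 15.26 in controls, and ran from 14.54 through 14.85 to 15.21 at 42 weeks and from 14.30 through 14.72 to 15.37 after DENA plus TCPOBOP. All 42-week arrays lay below all controls, and the DENA plus TCPOBOP arrays overlapped them. The Fga differences were -0.33 ± 0.20 (adjusted p = 0.22) and -0.38 ± 0.19 (adjusted p = 0.15). A second Fga probe passed at 42 weeks, at -0.62 (adjusted p = 0.017 over all kept probes), and stood at -0.50 after DENA plus TCPOBOP (adjusted p = 0.051). Fgg read 14.32, 13.69 and 13.81 in controls, 13.49 to 14.07 at 42 weeks and 13.41 to 14.23 after DENA plus TCPOBOP, with overlapping groups. Its differences were -0.18 ± 0.17 and -0.23 ± 0.17. Whether Fgb differed from Fga or Fgg in its change was not tested. Signals of the brightest Fga probe were close to the upper end of the array's intensity scale, whose highest value was 46395 on a linear scale.

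**Figure D4:**
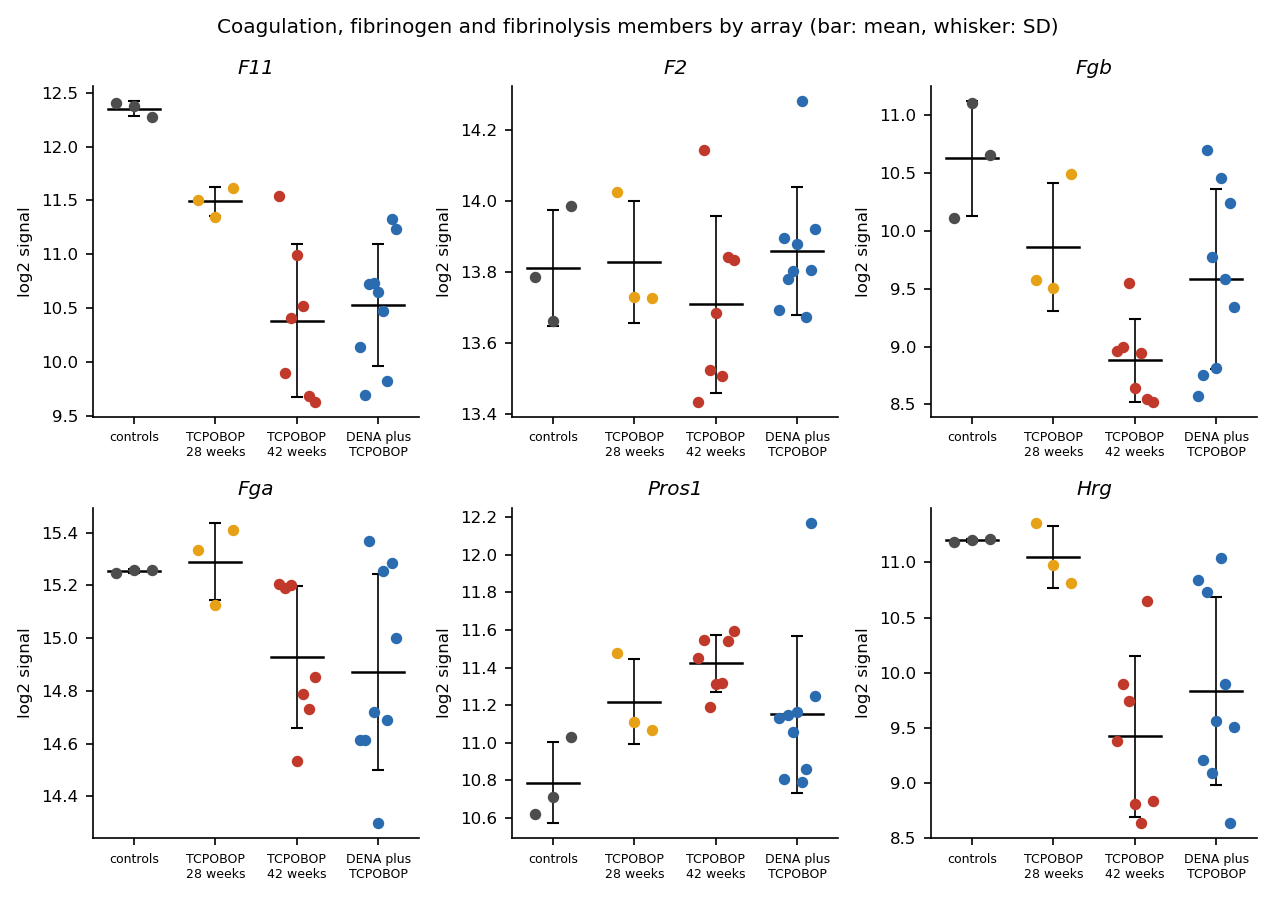
Log2 signal of F11, F2, Fgb, Fga, Pros1 and Hrg on each array (points), with the mean (bar) and SD (whisker) of each group; the vertical scale differs between panels. F11 and Hrg lie below the controls in both regimens, and Fgb and Fga at 42 weeks only, with overlap after DENA plus TCPOBOP. F2 does not separate the groups, and the 42-week arrays of Pros1 (11.19 to 11.60) lie above the controls.

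Anticoagulants moved in both directions at 42 weeks, with 3 of 5 called lower and 1 higher (17.5% and 14.8% of all genes). After DENA plus TCPOBOP 2 of 5 were called lower (15% of all genes). Proz, which encodes protein Z, a cofactor in the inhibition of factor Xa, read 11.56, 11.67 and 11.67 in controls and 11.82, 11.56 and 11.43 at 28 weeks. It ran from 9.47 through 10.45 to 11.12 at 42 weeks and from 10.47 through 10.77 to 11.52 after DENA plus TCPOBOP, below the controls in both. Proz fell by 1.29 ± 0.28 (adjusted p = 0.0014) and fell by 0.75 ± 0.27 (adjusted p = 0.045). The latter call was lost without control replicate 1, 2 or 3 (adjusted p = 0.099, 0.13 and 0.13) or DENA plus TCPOBOP replicate 1, 2, 3, 4, 7 or 8 (0.055 to 0.068).

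Pros1, which encodes protein S, the cofactor of activated protein C, rose at 42 weeks. Its signal was 10.62, 10.71 and 11.03 in controls and 11.48, 11.11 and 11.07 at 28 weeks. It ran from 11.19 through 11.45 to 11.60 at 42 weeks, above all controls, and from 10.79 through 11.13 to 12.17 after DENA plus TCPOBOP, which overlapped them. Pros1 rose by 0.64 ± 0.20 at 42 weeks (adjusted p = 0.021), and its difference after DENA plus TCPOBOP was 0.37 ± 0.20 (adjusted p = 0.19). The rise was lost without control replicate 1 or 2 (adjusted p = 0.096 and 0.084) and with median scaling, where it was 0.45 (adjusted p = 0.32). Proc, which encodes protein C, fell by 0.39 ± 0.10 in each regimen on its brightest probe. Its second probe stood at 0.07 at 42 weeks and -0.04 after DENA plus TCPOBOP, and was called in neither. Serpinc1, antithrombin, fell by 1.04 ± 0.24 at 42 weeks (adjusted p = 0.0020) and stood at -0.60 ± 0.23 after DENA plus TCPOBOP (adjusted p = 0.059). A second Serpinc1 probe was called in neither regimen, at -0.55 and -0.56 (adjusted p = 0.065 and 0.064). Serpind1, heparin cofactor II, was not called, at 0.31 ± 0.25 and 0.03 ± 0.24.

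All 3 measured members of fibrinolysis were called lower in both regimens on their brightest probes, where 17.5% and 15% of all genes were lower. Hrg, a plasma protein that binds heparin and plasminogen, read 11.18, 11.20 and 11.22 in controls and 11.36, 10.98 and 10.81 at 28 weeks. It ran from 8.63 through 9.38 to 10.65 at 42 weeks and from 8.63 through 9.56 to 11.04 after DENA plus TCPOBOP, below all controls. Hrg fell by 1.78 ± 0.46 (adjusted p = 0.0049) and fell by 1.37 ± 0.44 (adjusted p = 0.026), the latter lost without control replicate 1, 2 or 3 (adjusted p = 0.077, 0.080 and 0.082). Plg, the precursor of plasmin, fell by 0.60 ± 0.13 and fell by 0.42 ± 0.12, the latter lost without control replicate 2 (adjusted p = 0.11). Its other probes stood at 0.04, -0.72 and -0.49 at 42 weeks, the first not called and the others called lower. After DENA plus TCPOBOP they stood at -0.11, -0.17 and -0.31, and none was called (limma adjusted p = 0.86, 0.66 and 0.12). Serpinf2, the inhibitor of plasmin, fell by 0.77 ± 0.14 and fell by 0.56 ± 0.13.

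Between 28 and 42 weeks of TCPOBOP, 17 of 39 members were called lower and 0 higher (43.6%), against 7.83% of all genes lower and 6.62% higher, together 14.5%. Groups did not overlap for 16 members (16.4% of all genes). The members' median difference was -0.65, and over all genes it was 0.00. The falls were led by C8a (-2.85 ± 0.60, adjusted p = 0.0032), C9 (-2.84 ± 0.87, adjusted p = 0.032) and C4b (-2.69 ± 0.56, adjusted p = 0.0027). All 4 lectin pathway members were among the 17. No fibrinogen chain was. The C9 call was lost without 28-week replicate 1, 2 or 3 or 42-week replicate 5 or 7 (adjusted p = 0.050 to 0.12). This count of 17 rests on the 3 arrays at 28 weeks: without replicate 1, 2 or 3 of that group it was 5, 7 and 7. DENA plus TCPOBOP, which received TCPOBOP for the same 28 weeks, was lower than TCPOBOP alone in 9 of 39 members and higher in 0 (23.1%), against 7.11% of all genes lower and 5.92% higher, together 13%. Groups did not overlap for 9 members (12.6% of all genes). The 9 were C4b, Cfp, Masp2, Mbl1, C6, C8a, C8b, C8g and Klkb1, of which 8 are complement genes. Without 28-week replicate 3 that count was 4.

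Arrays within a regimen differed in how far the set was shifted. The median member difference from the control mean ran from -1.05 (replicate 7) to -0.59 (replicate 2) at 42 weeks, and from -0.78 (replicate 7) to -0.35 (replicate 6) after DENA plus TCPOBOP. DENA plus TCPOBOP replicate 6 held the highest value of its group for 17 of 39 members and replicate 8 for 12. At 42 weeks replicate 3 held the highest value for 16 members and replicate 5 the lowest for 14. At 28 weeks the arrays stood at -0.08, -0.34 and -0.35.

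Genes of the same pathways that were not members were read from 3 lists. Of 20 other complement genes measured, 13 were called lower and 3 higher at 42 weeks, and 8 lower and 1 higher after DENA plus TCPOBOP, with medians of -0.91 and -0.49. The calls make 16 and 9 of 20, where 32.3% and 26.9% of all genes were called. C4a (-3.94 and -3.46) and Colec11 (-2.04 and -1.98), a collectin that triggers the lectin pathway, fell in both regimens. Fcna, a ficolin that does the same, fell by 2.20 at 42 weeks, and Colec10, another collectin, fell by 1.53 after DENA plus TCPOBOP. C1qc and C1qb, chains of the recognition molecule C1q, were higher at 28 weeks (1.36 and 1.31), the 2 genes of this list called there, beside the Kupffer cell markers given above. The C1qb difference was not confined to 28 weeks: it was 1.08 at 42 weeks and 0.97 after DENA plus TCPOBOP, the highest of the list in each. Of the 23 other coagulation and fibrinolysis genes, 4 were called in each direction at 42 weeks, and 5 higher and 3 lower after DENA plus TCPOBOP. That is 34.8% of the list in each regimen, near the 32.3% and 26.9% of all genes. Anxa2, a plasminogen receptor, was higher in all 3 treated groups (2.78 at 28 weeks, 3.04 at 42 weeks and 2.72 after DENA plus TCPOBOP). F8, the haemophilia A factor, fell by 1.30 at 42 weeks, as did Hgf, a growth factor, by 0.91. Plat, a plasminogen activator, rose by 2.38 after DENA plus TCPOBOP, where Hgfac, the protease that activates Hgf, fell by 1.49. These values do not set the regimens apart: between them 0 of the 23 genes were called (1.81% of all genes). For DENA plus TCPOBOP against 42 weeks the list ran from -0.61 (Hgfac) to 0.76 (Plat). Vkorc1l1, a vitamin K reductase, rose by 0.73 at 28 weeks.

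Other secreted hepatocyte proteins were also lower in part. Of 24 measured, 10 were called lower and 0 higher at 42 weeks, and 9 lower and 0 higher after DENA plus TCPOBOP, with a median of -0.26 in each, beside -0.68 and -0.51 for the members. The difference between the lists was not tested. The calls make 41.7% and 37.5% of these 24 genes. Of all genes, 32.3% and 26.9% were called in either direction, and 17.5% and 15% lower. Itih1 (-2.05 and -1.97), Itih3 (-1.56 and -1.50), both heavy chains of the inter-alpha-trypsin inhibitors, and Afm (-1.76 and -1.30), a vitamin E-binding protein, showed the largest falls. At 28 weeks Itih3 was the 1 gene of the list that was called, at -1.50.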

How the data were processed

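RNA from 22 liver samples was amplified to biotin-labelled cRNA and hybridised to Illumina mouse bead arrays with 45281 probes, per the labels' protocols. Arrays were read with BeadStudio 3.0.19.0, per the submitters' processing notes. The deposited normalized table holds intensity on a linear scale from 80.3 to 46395 on every array, with background kept; the method of normalization is not given in the sources used here. A deposited detection p-value accompanies each intensity. The authors' non-normalized intensity served alternatives. Log2 was computed here from the deposited normalized values.

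A probe entered if its detection p fell below 0.05 on 3 or more arrays (22622 probes, of which 19067 had 1 symbol). The platform annotation gives 34885 probes 1 symbol, 18 several and 10378 none. All 4 groups were fitted together with limma 3.58.1 in R 4.3.3 (lmFit, eBayes), with Benjamini-Hochberg adjustment over 11975 genes, a threshold of 0.05 and 6 comparisons, two-sided. The procedure was tested on simulated data with the same spread per gene in all groups, which does not cover groups that differ in spread. Arrays detected 34.8% to 42.6% of their probes; the number of arrays limits the precision. The titles of the controls carry an abbreviation, read as the vehicle group because no other group lacks TCPOBOP. Slides (4) were taken from array positions. P-values weigh each group difference against the spread between these arrays, pooled over the 4 groups. In each functional group the members with the largest fall and rise among those called in a regimen are given in full, and others by range and count; of other lists up to 3 called genes per comparison are named. The members and lists were chosen with earlier results of these data known. Motifs were searched with pandas 2.3.3 and figures drawn with matplotlib 3.10.9. Alternatives were background correction (normexp, offset 16), other normalizations, filters on dim probes, treatment of several probes, slide and replicate blocks, array weights, moderation, a fit of the compared groups only, and leaving out each array.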

Additional observations from a re-analysis of the deposited data

Results flagged for a closer look

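In 6 of 78 pairs of a member and a group, 1 array stood apart from the others of its group, where chance gives about 1 in 20. At 42 weeks Masp1 was 9.22 in replicate 6 (next 10.69), C9 was 11.13 in replicate 3 (next 8.14) and Vtn was 14.26 in replicate 4 (next 14.59). After DENA plus TCPOBOP C6 was 10.43 (next 8.17) and Pros1 was 12.17 (next 11.25), both in replicate 8, and F2 was 14.28 in replicate 6 (next 13.92).

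The effects of the treated groups, each against the same controls, differed by limma's test for the members below. Between 42 and 28 weeks of TCPOBOP the log2 difference was -2.69 for C4b, -0.85 for Cfp, -1.12 for Masp1, -0.86 for Masp2, -2.37 for Mbl1 and -0.65 for Mbl2. It was -2.38 for C6, -2.85 for C8a, -1.14 for C8g, -2.84 for C9 and -2.16 for Serping1. It was -0.78 for F9, -1.11 for F11, -1.14 for Klkb1, -1.26 for Proz, -0.74 for Serpinc1 and -1.63 for Hrg. Between DENA plus TCPOBOP and 28 weeks of TCPOBOP it was -2.37 for C4b, -1.22 for Cfp, -0.82 for Masp2, -1.78 for Mbl1, -2.22 for C6, -2.39 for C8a, -1.07 for C8b, -1.17 for C8g and -1.13 for Klkb1. C8b alone differed between the regimens, at -0.64 for DENA plus TCPOBOP against 42 weeks. C6 and Cfp were called in these comparisons and not in any against controls.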

How the results depend on the processing

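Of the 25 members called at 42 weeks against controls 17 kept the call under all 14 alternatives and without any 1 array, as did 12 of 21 after DENA plus TCPOBOP. Between 42 and 28 weeks 3 of 17 did (C4b, Mbl1 and C8a), between DENA plus TCPOBOP and 28 weeks 3 of 9 (C4b, Cfp and C8b), and between the regimens 0 of 1. Without 1 array at a time, the count of called members was 0 to 0 at 28 weeks, 22 to 26 at 42 weeks, 15 to 23 after DENA plus TCPOBOP, 5 to 18 between 42 and 28 weeks, 4 to 13 between DENA plus TCPOBOP and 28 weeks, and 0 to 2 between the regimens. Against the 0 calls at 28 weeks, cyclic loess gave 2, the mean of a gene's probes 1, array weights 5 and the fit of only the groups compared 13. Median scaling gave 12 calls for DENA plus TCPOBOP against controls (21 otherwise) and 9 between 42 and 28 weeks (17). Array weights gave 17 between DENA plus TCPOBOP and 28 weeks (9). The call between the regimens became 0 under cyclic loess, median scaling, no filter on dim probes, a fixed or random slide block and the fit of only the groups compared. Kng1 turned to -0.46 at 42 weeks and -0.40 after DENA plus TCPOBOP with probes averaged, since its other probes differ in sign. For the other changes the cause was not tested. Median scaling moved the share of higher among called genes from 56.6% to 67.2% at 28 weeks, from 45.8% to 22.4% between 42 and 28 weeks and from 45.4% to 25.5% between DENA plus TCPOBOP and 28 weeks, and left 1 gene called between the regimens against 217. Replicate numbers did not pair the arrays (correlations of deviations -0.175 to 0.183). With a replicate block the counts were 2, 23, 18, 11, 9 and 1 in the order of the counts above. Low signals of C9, C8a and C6 near background limit the size of their differences.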
